A study of Mus musculus with 8 samples.

Results

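Liver transcripts of 9 genes of insulin signalling and gluconeogenesis were examined, chosen by name to ask whether the feeding state differed between Smo-KO and control livers. They are Insr, Irs1, Irs2, Akt2 and Foxo1, which carry the insulin signal, and Ppargc1a, Pck1, Fbp1 and Igfbp1, which respond to it or make glucose. The 9 genes are 9 of the 25239 gene symbols counted, and all 9 were among the 12977 genes abundant enough to be tested. The livers came from 8 adult male mice with a floxed Smo allele (Smo tm2Amc/J, Smo fl/fl) on a C57Bl6/J background. Every mouse was fed the CDA-HFD, a choline-deficient diet built on L-amino acids with 60 kcal% fat, for 6 weeks. At 1 week before sacrifice each mouse received by tail vein an AAV8 vector whose TBG promoter is active in hepatocytes. The vector carried luciferase in the 4 control mice (AAV8-TBG-Luciferase) and Cre recombinase in the 4 Smo-KO mice (AAV8-TBG-Cre). Both groups therefore shared the floxed allele, the diet and a viral vector, although the labels give the control genotype as WT. Cre acts only where TBG is active, whereas RNA was taken from whole liver. The methods state an age at injection only in describing mice of this line kept on chow. An age for the CDA-HFD mice, the hour of sacrifice and whether food had been withdrawn are not given in the sources used here.

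After a meal insulin binds its receptor, Insr, on hepatocytes. The receptor phosphorylates the adaptors Irs1 and Irs2, these recruit phosphoinositide 3-kinase, and the kinase Akt2 then phosphorylates the transcription factor Foxo1, which leaves the nucleus. During fasting Foxo1 stays in the nucleus and, with glucagon, glucocorticoids and the coactivator encoded by Ppargc1a, raises transcription of Irs2, Igfbp1 and the gluconeogenic enzymes. Pck1, phosphoenolpyruvate carboxykinase, makes phosphoenolpyruvate from oxaloacetate, and Fbp1, fructose bisphosphatase, acts further along the same route. Igfbp1 encodes a secreted binding protein of insulin-like growth factors and is a classic insulin-repressed transcript of liver.

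The genes lie on several chromosomes of GRCm38, the build named in the submitters' processing notes, at the positions given by GENCODE M21. Insr spans chr8:3122061-3279617 on the minus strand, Irs1 chr1:82233101-82291416 (minus) and Irs2 chr8:10984681-11008458 (minus). Akt2 spans chr7:27591552-27640826 (plus), Foxo1 chr3:52268336-52353221 (plus) and Ppargc1a chr5:51454250-51567726 (minus). Pck1 spans chr2:173153048-173159273 (plus), Fbp1 chr13:62864753-62888282 (minus) and Igfbp1 chr11:7197782-7202546 (plus). All are annotated as protein-coding.

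The promoters of Pck1, Irs2 and Igfbp1 are shown because these are the genes whose transcription hormones of fasting and feeding are best known to control. Each stretch covers 160 bases, from 190 to 31 bases before the transcription start given by RefSeq (GRCm38.p6), on the strand of the gene from 5′ to 3′. For Irs2 that start lies upstream of the GENCODE M21 start (chr8:11008458), so its positions count from the RefSeq start only. Capitals mark a cyclic AMP response element variant (TTACGTCA) in Pck1 and the insulin response core (TGTTTTG) in Irs2 and, read on the opposite strand as CAAAACA, in Igfbp1.
Pck1, chr2:173152883-173153042 (plus): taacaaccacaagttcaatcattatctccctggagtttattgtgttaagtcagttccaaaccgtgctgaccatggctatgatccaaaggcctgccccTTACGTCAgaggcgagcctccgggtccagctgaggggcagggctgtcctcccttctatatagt
Irs2, chr8:11008960-11009119 (minus): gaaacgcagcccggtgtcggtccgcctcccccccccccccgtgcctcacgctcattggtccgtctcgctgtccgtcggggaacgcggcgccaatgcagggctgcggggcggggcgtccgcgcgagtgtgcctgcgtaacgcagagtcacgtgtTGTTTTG
Igfbp1, chr11:7197597-7197756 (plus): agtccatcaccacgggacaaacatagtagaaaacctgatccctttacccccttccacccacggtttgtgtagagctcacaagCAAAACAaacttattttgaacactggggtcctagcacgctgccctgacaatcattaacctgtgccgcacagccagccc
The marked letters begin at base -93 in Pck1, -37 in Irs2 and -108 in Igfbp1, counted back from the start. On either strand of windows from 250 bases before to 50 after a start, TTACGTCA occurred in 0.499% of 32851 windows and TGTTTTG in 6.28%. TGTTTTG also occurred in Irs1, at -111 and -32, and in G6pc, at -174. A Foxo motif, searched only as the exact letters TGTTTAC (3.65% of windows), had 0 matches in the 8 members with a window. The palindromic element TGACGTCA (1.79%) also had 0. So did the palindromic glucocorticoid response element, searched as its exact letters with 3 free bases between the half-sites (0.00913%). A match or its absence describes exact letters in these windows only.

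Each library held between 8203299 and 9999732 reads on genes, with medians of 9643036 in control and 9406611 in Smo-KO mice (exact permutation test, two-sided, p = 0.257). Smo-KO mouse 3 had the fewest reads. Reads that fell on no gene made up 8.38%, 9.32%, 7.56% and 8.05% of all reads in control mice 1 to 4 and 8.99%, 8.97%, 9.68% and 9.26% in Smo-KO mice 1 to 4. All 4 Smo-KO libraries lay above 3 of the 4 controls, and the part of this difference in the results was not tested. Values are CPM, reads on a gene relative to the library total, after TMM scaling, a correction for library composition, so that 3 reads corresponded to 0.296 to 0.365 CPM. Smo, the deleted gene, was at 8.16, 8.48, 8.74 and 8.20 CPM in control mice 1 to 4 and at 5.66, 3.92, 4.26 and 4.37 CPM in Smo-KO mice 1 to 4. The groups did not overlap (log2 fold change -0.88, SE 0.16; exact permutation test, two-sided, p = 0.0286, the smallest that 4 against 4 mice allow), although edgeR's quasi-likelihood test gave an adjusted p of 0.0957 and DESeq2's 0.00646. In whole-liver RNA, fewer cells of a type and less RNA per cell cannot be told apart.

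Among the 9 genes, none differed between Smo-KO and control livers past the threshold. At an adjusted p under 0.05, edgeR called 0 of the 9 genes and 0 of the 12977 genes tested (0.00%), and DESeq2 called 0 of the 9 genes against 1.29% of all genes. At an unadjusted p under 0.05, edgeR called 1 of the 9, Insr, whereas 13.8% of all genes passed. For 0 of the 9 genes did the control and Smo-KO values not overlap, against 7.37% of all genes (3.03% higher and 4.34% lower in Smo-KO livers). Means were higher in Smo-KO livers for 3 genes and lower for 6, and the median log2 fold change was -0.081 against -0.00084 over all genes. The adjusted p of the 9 genes ran from 0.247 to 0.836 in edgeR, and their lowest in DESeq2 was 0.204. These p-values weigh each group difference against the spread between mice of one group, which is estimated partly over all genes. A p above the threshold does not show that the groups were alike, so the 95% interval of each difference is given below.

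**Figure D1:**
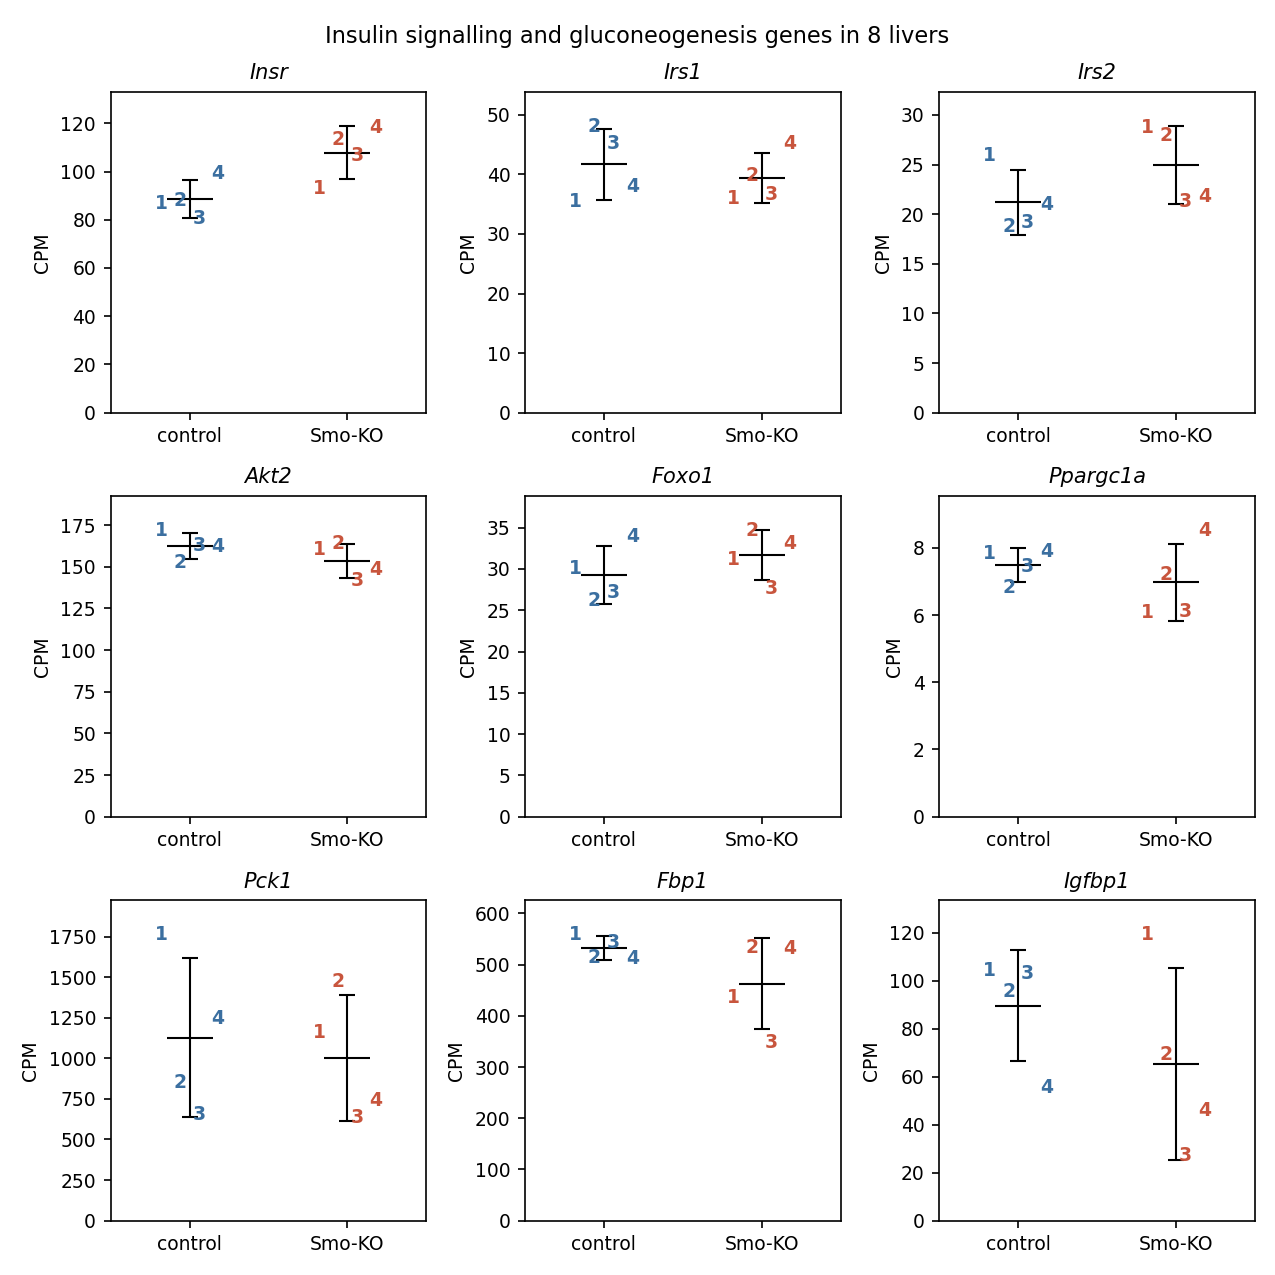
Levels of the 9 genes in each liver, in CPM on linear axes that start at 0. Digits are single mice centred on their value (blue, control; red, Smo-KO), long horizontal lines are group means and error bars are 1 SD over 4 mice; the groups overlap for all 9 genes, and Pck1 and Igfbp1 spread most.

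Insr, the receptor, had the smallest p of the 9. It was at 86.9, 87.9, 80.4 and 99.1 CPM in control mice 1 to 4 and at 93.1, 113, 107 and 118 CPM in Smo-KO mice 1 to 4. Every Smo-KO mouse lay above the control mean, and the groups overlapped only because control mouse 4 lay above Smo-KO mouse 1. The means were 88.6 ± 7.76 and 108 ± 10.9 CPM (SD, n = 4 each), and the log2 fold change was 0.28 with a 95% interval of 0.07 to 0.50. The p was 0.0134 before and 0.247 after adjustment in edgeR, and 0.0571 in the exact permutation test, two-sided. With single mice left out the log2 fold change ran from 0.24 without Smo-KO mouse 4 (adjusted p = 0.480 in edgeR) to 0.35 without Smo-KO mouse 1 (0.108).

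Neither of the adaptors Irs1 and Irs2 passed the test. Irs1 was at 35.5, 48.1, 45.2 and 38.04 CPM in control mice and at 35.9, 39.8, 36.7 and 45.3 CPM in Smo-KO mice, in the order of mice 1 to 4. Control mice 2 and 3 and Smo-KO mouse 4 were high, and the rest lay close together. The log2 fold change was -0.08 (95% interval -0.34 to 0.17, edgeR adjusted p = 0.799). Irs2, the adaptor that fasting raises, was at 25.9, 18.7, 19.2 and 20.9 CPM in control mice and at 28.7, 27.9, 21.3 and 21.8 CPM in Smo-KO mice. Smo-KO mice 1 and 2 exceeded every control mouse, whereas control mouse 1 exceeded Smo-KO mice 3 and 4. The means were 21.2 ± 3.30 and 24.9 ± 3.91 CPM (SD, n = 4 each), and the log2 fold change was 0.24 (95% interval -0.06 to 0.54, edgeR adjusted p = 0.467). Leaving out control mouse 1 raised it to 0.35 (in edgeR's fit over all genes, unadjusted p = 0.0222 and adjusted p = 0.257).

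Within a liver the CPM of Irs2 relative to Irs1 compares the reads of the adaptors without regard to length. It does not show which transcript was the more abundant. This ratio was 0.732, 0.390, 0.424 and 0.551 in control mice 1 to 4 and 0.799, 0.701, 0.581 and 0.482 in Smo-KO mice 1 to 4. Control mouse 1 was as high as the upper Smo-KO mice, and the groups overlapped.

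Akt2, the main insulin-responsive Akt of hepatocytes, was the steadiest of the 9 genes. Its values were 172, 153, 163 and 162 CPM in control mice and 160.3, 164, 142 and 148 CPM in Smo-KO mice. Smo-KO mice 3 and 4 lay below every control mouse and the other pair lay within the control range. The log2 fold change was -0.08 (95% interval -0.26 to 0.10, edgeR adjusted p = 0.714). Foxo1, the transcription factor that Akt restrains, stood at 30.02, 26.2, 27.1 and 34.0 CPM in control mice and at 31.2, 34.6, 27.7 and 33.1 CPM in Smo-KO mice. Smo-KO mouse 2 was the highest and control mouse 2 the lowest, with the ranges nearly coinciding. Its log2 fold change was 0.11 (95% interval -0.13 to 0.35, edgeR adjusted p = 0.699). Foxo1 activity depends on phosphorylation and location, which read counts do not measure.

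Ppargc1a, the coactivator induced in fasted liver, was the least abundant, with 50 to 80 reads per library. It was at 7.82, 6.81, 7.44 and 7.90 CPM in control mice and at 6.08, 7.19, 6.09 and 8.52 CPM in Smo-KO mice. The highest and the lowest value were both in Smo-KO mice. The log2 fold change was -0.10 (95% interval -0.44 to 0.24, edgeR adjusted p = 0.809).

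Pck1 differed more between mice of one group than between the groups. Control mice 1 to 4 had 1764, 849, 652 and 1248 CPM, and Smo-KO mice 1 to 4 had 1157, 1471, 635 and 742 CPM. Each group held 2 high and 2 low livers, and the highest liver had 2.78 times the level of the lowest. The means were 1128 ± 491 and 1001 ± 386 CPM (SD, n = 4 each), with a log2 fold change of -0.17 (95% interval -0.82 to 0.47; edgeR adjusted p = 0.836). Control mouse 1 set its sign: without that mouse the log2 fold change was 0.13 (edgeR adjusted p = 0.863).

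Fbp1 was at 559, 513, 544 and 512 CPM in control mice 1 to 4, and at 435, 534, 348 and 532 CPM in Smo-KO mice 1 to 4. Smo-KO mice 1 and 3 lay below all controls and the other pair lay among them. The means were 532 ± 23.3 and 462 ± 88.7 CPM (SD, n = 4 each), and the log2 fold change was -0.20 (95% interval -0.47 to 0.07, edgeR adjusted p = 0.4998). It was -0.09 without Smo-KO mouse 3.

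Igfbp1 had the widest spread of the 9 genes. It was at 104, 95.6, 103 and 55.5 CPM in control mice 1 to 4 and at 119, 69.2, 27.0 and 45.9 CPM in Smo-KO mice 1 to 4. The highest and the lowest liver were both Smo-KO, and they differed 4.41-fold. The means were 89.6 ± 23.1 and 65.4 ± 39.9 CPM (SD, n = 4 each), and the log2 fold change was -0.45 with a 95% interval of -1.19 to 0.29 (edgeR adjusted p = 0.588). Single mice moved this value from -0.91 without Smo-KO mouse 1 (unadjusted p = 0.00697 and adjusted p = 0.140 in edgeR's fit over all genes) to -0.20 without Smo-KO mouse 3 (adjusted p = 0.870).

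**Figure D2:**
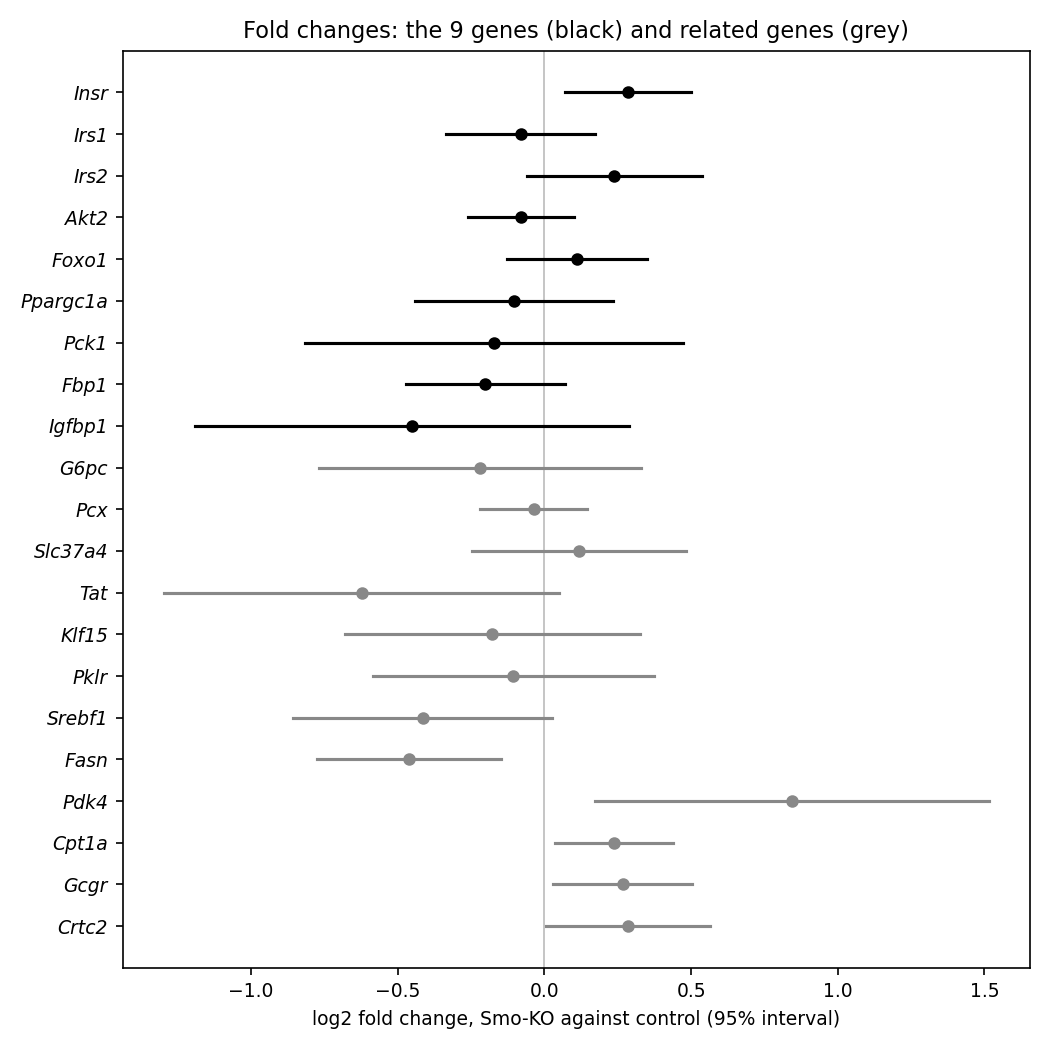
Log2 fold change of Smo-KO against control (points) with its 95% interval from edgeR (lines, 4 mice per group) for the 9 genes in black and 12 related genes in grey. The interval leaves out 0 for Insr among the 9, and the widest intervals of the 9 are those of Pck1 and Igfbp1.

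Per kilobase of the longest annotated transcript, the levels of the 9 genes ran over a wide range in control livers. Pck1 stood at 414 ± 180.0 CPM per kilobase and Fbp1 at 360 ± 15.8 (SD, n = 4), a pair that did not differ beyond the spread of Pck1. Igfbp1 followed at 58.8 ± 15.1, Akt2 at 35.7 ± 1.72 and Insr at 9.47 ± 0.830. The adaptors and transcription factors were lowest, Irs1 at 4.56 ± 0.647, Foxo1 at 3.38 ± 0.406, Irs2 at 3.35 ± 0.523 and Ppargc1a at 1.16 ± 0.0772. Foxo1 and Irs2 did not differ beyond their spread. In Smo-KO livers Irs2 (3.94 ± 0.618) stood above Foxo1 (3.65 ± 0.348), again within the spread.

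The spread between mice of one group differed widely among the 9 genes. The biological coefficient of variation in edgeR, the relative spread beyond counting error, was 0.337 for Igfbp1 and 0.295 for Pck1, the 99.1 and 98.3 percentiles of all genes tested, whose median was 0.120. The other 7 lay between 0.0955 for Akt2 and 0.134 for Fbp1, from the 10.6 to the 63.6 percentile. Of 24 genes listed as raised in fasting through Foxo or cyclic AMP, 11 (45.8%) lay above the 90th percentile, among them Tat, Lpin1, Sds, G6pc and Klf15. Of 30 gluconeogenic enzymes and carriers 3 did so, of 59 insulin pathway genes 6, and of 9 hepatocyte markers 0. Other lists had like shares above that percentile: 7 of 16 PPAR alpha genes, 9 of 26 genes raised by feeding or insulin, 4 of 8 insulin-like growth factor binding proteins and 9 of 17 clock genes.

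**Figure D3:**
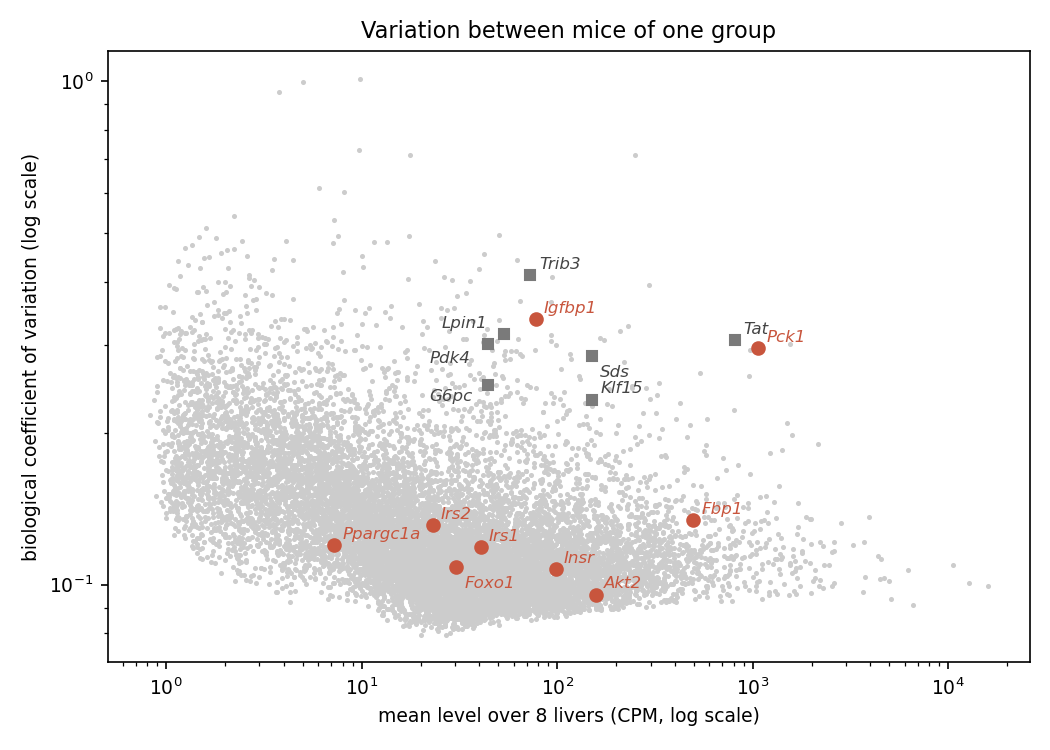
Biological coefficient of variation between mice of one group against mean level in CPM, both on log axes, for the 12977 genes tested (grey dots), the 9 genes (red) and 7 related genes (dark squares). Pck1 and Igfbp1 lie with Tat, Trib3 and Lpin1 above most genes of their level, whereas Insr, Akt2 and Foxo1 lie below the median of 0.120 over all genes tested.

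No pair of the 9 genes correlated past adjustment over the 8 livers once the group means were removed. Of the 36 pairs, 26 correlated positively and 10 negatively, and 3 had an unadjusted p under 0.05. Irs2 and Pck1 gave Pearson's r = 0.92 (exact permutation within groups, two-sided, p = 0.0156) and Spearman's rho = 0.83 (permutation p = 0.0382). Irs2 and Akt2 gave r = 0.91 (exact permutation p = 0.0174) and rho = 0.88 (permutation p = 0.0243). Akt2 and Pck1 gave r = 0.82 (exact permutation p = 0.0365) and rho = 0.71 (permutation p = 0.0764). Without the 2 livers farthest from the median of the first gene, r was 0.93, 0.91 and 0.71. After adjustment over the 36 pairs, these had permutation p of 0.312, 0.312 and 0.383 for r. The adaptors Irs1 and Irs2 did not pass even unadjusted (r = -0.67, exact permutation p = 0.104, adjusted p = 0.383; rho = -0.69, permutation p = 0.0660), and r was -0.49 without 2 livers.

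**Figure D4:**
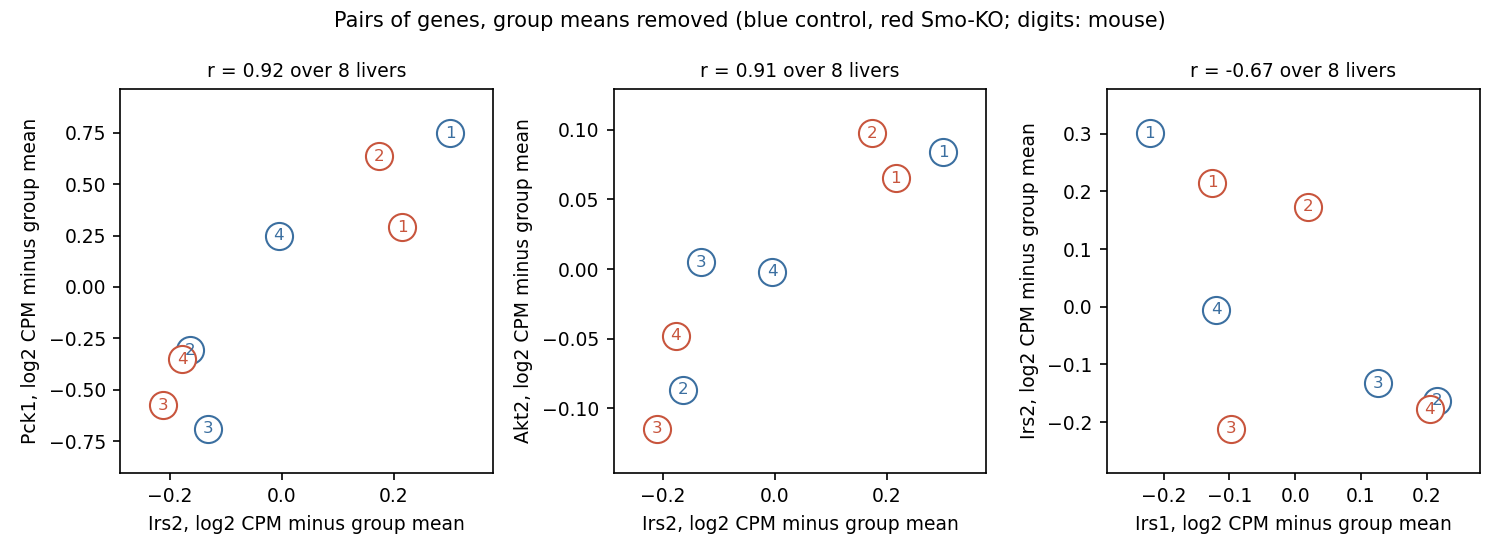
Log2 CPM minus the group mean for 3 pairs of genes over 8 livers; each circle is a mouse (blue, control; red, Smo-KO; digits, mouse number) and axes are in log2 units. Control mouse 1 and Smo-KO mice 1 and 2 are high in Irs2 and in Pck1, and the Irs1 against Irs2 panel slopes downward without passing the test (r = -0.67).

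The genes whose pattern was most like a member's, by Pearson's r over the 8 livers with group means removed among 10784 genes of at least 5 CPM, were as follows. For Irs2 they were Mipep (r = 0.99), Zfp9 (0.98) and Klhl21 (0.97). For Igfbp1 they were Osbp (0.98), Tmem184b (0.98) and Lrrc59 (0.96). For Pck1 they were Usf2 (0.97), Drosha (0.97) and Nupl2 (0.96), and for Ppargc1a Uxt (0.96), Commd1 (0.95) and Tstd3 (0.95). These are the extremes of many genes over 8 livers and are given as a description.

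The insulin pathway around these genes showed no adjusted call in edgeR. Of 59 genes tested from receptor to Akt substrates and inhibitors, 2 were higher and 8 lower at an unadjusted p under 0.05 (3.39% and 13.6%, against 6.70% and 7.15% of all genes), and the median log2 fold change was -0.038. DESeq2 called 2 of them after adjustment (1.29% of all genes), both lower in Smo-KO livers, Socs1 and Ceacam1. Socs1, an inhibitor of cytokine and insulin receptor signalling, was at 4.64, 11.8, 10.8 and 7.01 CPM in control mice and at 3.71, 2.61, 5.24 and 2.77 CPM in Smo-KO mice. Of the controls, only mouse 1 fell inside the range of the Smo-KO mice (log2 fold change -1.27, SE 0.30, adjusted p = 0.140 in edgeR and 0.00964 in DESeq2). Ceacam1, which promotes insulin clearance by hepatocytes, was at 145, 115, 112 and 119.8 CPM in control mice and at 98.3, 94.0, 64.8 and 78.9 CPM in Smo-KO mice. The groups did not overlap (log2 fold change -0.55, SE 0.13, adjusted p = 0.143 in edgeR and 0.0232 in DESeq2).

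Of 20 brakes on insulin signalling within that list, 1 was higher and 5 were lower at an unadjusted p under 0.05 (5% and 25%, against 6.70% and 7.15% of all genes), with 10 of each sign and a median log2 fold change of -0.00027. The higher one was Socs2, a feedback inhibitor of growth hormone signalling, at 6.00, 5.76, 11.6 and 7.71 CPM in control mice and at 12.4, 13.7, 71.5 and 10.97 CPM in Smo-KO mice. Its log2 fold change of 1.78 (edgeR adjusted p = 0.215) rested on Smo-KO mouse 3 and was 0.66 without it (adjusted p = 0.396). Ptpn1, a phosphatase of the insulin receptor, averaged 75.6 ± 2.60 against 64.9 ± 5.82 CPM (SD, n = 4 each) without overlap (edgeR adjusted p = 0.300). Of other genes named from the whole insulin pathway, Shc1 and Grb2 were among the lower genes at an unadjusted p under 0.05, and 0 passed adjustment in edgeR. Their log2 fold changes were -0.18 for Pik3r1, a regulatory subunit of phosphoinositide 3-kinase, -0.25 for Shc1, -0.19 for Grb2 and -0.16 for Grb14. Shc1, Grb2 and Grb14 are adaptors. Akt1 gave -0.04 and Foxo3 -0.45 (-0.29 without control mouse 2). The edgeR adjusted p of these genes lay between 0.309 and 0.889. Trib3, a pseudokinase that binds Akt, ran from 25.1 CPM in Smo-KO mouse 3 to 134 CPM in Smo-KO mouse 1, and its log2 fold change was -0.48 (edgeR adjusted p = 0.655). That value was -1.22 without Smo-KO mouse 1 (adjusted p = 0.0834) and -0.22 without Smo-KO mouse 3 (0.899).

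Along the gluconeogenic route, 30 enzymes and carriers were tested, of which 12 had a higher and 18 a lower mean in Smo-KO livers. At an unadjusted p under 0.05, 2 were higher and 4 lower in edgeR (6.67% and 13.3%, against 6.70% and 7.15% of all genes), the median log2 fold change was -0.036, and 0 passed adjustment in edgeR or DESeq2. Without Smo-KO mouse 3, when fewer of all genes had an unadjusted p under 0.05 too, the numbers were 0 and 3. The median ran from -0.073 without control mouse 2 to 0.0034 without control mouse 1. The 2 higher ones were Fbp2, a second fructose bisphosphatase known mainly from muscle, which averaged 0.869 ± 0.307 against 2.37 ± 1.55 CPM (SD, n = 4 each; log2 fold change 1.39, adjusted p = 0.241), and Slc25a13, the mitochondrial aspartate and glutamate carrier (0.19, 0.330), both from edgeR. The 4 lower ones were Pgam1, phosphoglycerate mutase (log2 fold change -0.31, adjusted p = 0.176), Mdh1, cytosolic malate dehydrogenase (-0.26, 0.241), Gpt2, an alanine aminotransferase (-0.35, 0.252), and Gpd1, which converts glycerol phosphate (-0.33, 0.269), all adjusted p from edgeR. Mdh1 was at 545, 499, 547 and 524 CPM in control mice and at 417, 496, 406 and 444.4 CPM in Smo-KO mice, every Smo-KO mouse below every control mouse. G6pc, the catalytic subunit of glucose-6-phosphatase, was at 63.7, 29.4, 62.1 and 34.9 CPM in control mice and at 42.6, 50.3, 24.97 and 44.8 CPM in Smo-KO mice. Like Pck1 it varied within both groups (log2 fold change -0.22, 95% interval -0.77 to 0.33, edgeR adjusted p = 0.740), and the value ran from -0.39 without control mouse 2 to -0.05 without Smo-KO mouse 3. Pcx, pyruvate carboxylase, was close to level, at 441 ± 18.2 against 430.4 ± 31.2 CPM (SD, n = 4 each; log2 fold change -0.04, 95% interval -0.22 to 0.15). Slc37a4, the glucose-6-phosphate transporter (0.12), and Pck2, the mitochondrial carboxykinase (0.16), took the other sign when single mice were left out.

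Of 41 regulators of gluconeogenesis, 5 were higher and 3 lower at an unadjusted p under 0.05 in edgeR (12.2% and 7.32%, against 6.70% and 7.15% of all genes), with a median log2 fold change of -0.0070. The smallest p of the list was that of Adcy6. This gene, an adenylyl cyclase that makes cyclic AMP, was at 48.1, 60.3, 40.4 and 44.5 CPM in control mice and at 67.2, 76.0, 82.3 and 75.4 CPM in Smo-KO mice. No Smo-KO mouse overlapped the controls (log2 fold change 0.64, SE 0.12, adjusted p = 0.1004 in edgeR and 0.00105 in DESeq2). Gcgr, the glucagon receptor (0.27, adjusted p = 0.308), Crtc2, a coactivator of cyclic AMP response elements (0.28, 0.353), and Sirt1, a deacetylase (0.40, 0.241), averaged higher with overlap, whereas Prkaca, a catalytic subunit of protein kinase A (-0.27, 0.261), was lower without overlap, all from edgeR. Nr0b2, a repressor induced by bile acids, had a log2 fold change of -0.65 (edgeR adjusted p = 0.340), and -0.32 without control mouse 1 (adjusted p = 0.571), which was highest at 113 CPM. Hnf4a (-0.13), Cebpb (-0.05) and Nr3c1, the glucocorticoid receptor (-0.0070), transcription factors that act on Pck1, had edgeR adjusted p between 0.579 and 0.984.

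Genes raised in fasting through Foxo or cyclic AMP, a list that holds Pck1, Igfbp1, G6pc, Irs2, Ppargc1a and Insr among its 24, were balanced between the groups. In Smo-KO livers 12 had a higher and 12 a lower mean, the median log2 fold change was 0.0025, and 1 was higher and 1 lower at an unadjusted p under 0.05 in edgeR (4.17% each, against 6.70% and 7.15% of all genes). The higher one was Insr and the lower one Cited2, a transcriptional coregulator (log2 fold change -0.35, adjusted p = 0.266). The mean log2 difference from the control mean was 0.19, -0.0016, -0.25 and 0.06 in control mice 1 to 4 and 0.19, 0.04, -0.36 and -0.08 in Smo-KO mice 1 to 4. Control mouse 1 and Smo-KO mouse 1 were highest, control mouse 3 and Smo-KO mouse 3 lowest, and the groups spanned about the same range. Without Smo-KO mouse 1, 5 genes of the list were lower at an unadjusted p under 0.05, and without Smo-KO mouse 3, 0 were. Over all genes, too, more had such a p without Smo-KO mouse 1 and fewer without Smo-KO mouse 3. Tat, the glucocorticoid-induced tyrosine aminotransferase, was at 1275, 732, 840.3 and 1074 CPM in control mice and at 919, 823, 242 and 561 CPM in Smo-KO mice. Smo-KO mouse 3 was lowest by far (log2 fold change -0.62, edgeR adjusted p = 0.397; -0.35 without it). Sds, serine dehydratase (0.10), Klf15, a fasting-induced transcription factor (-0.18), and Lpin1, a phosphatidate phosphatase (0.31), had edgeR adjusted p between 0.709 and 0.915.

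Fasting genes driven by PPAR alpha, the fatty acid receptor, leaned the other way from that balance, a pattern known from earlier results of these data. Of 16 tested, 13 were higher and 1 lower at an unadjusted p under 0.05 in edgeR (81.2% and 6.25%, against 6.70% and 7.15% of all genes). The median log2 fold change was 0.41, 0 passed adjustment in edgeR, and DESeq2 called 3, against 1.29% of all genes. Without Smo-KO mouse 3 the 13 became 5 and the median 0.24. Fewer of all genes, too, had an unadjusted p under 0.05 without that mouse. Cpt1a, which admits fatty acids to mitochondria, averaged 408 ± 30.1 against 481 ± 40.2 CPM (SD, n = 4 each; edgeR adjusted p = 0.290). Vnn1 (log2 fold change 0.88, edgeR adjusted p = 0.146) and Creb3l3 (0.36, 0.163) did not overlap between the groups, and Angptl4 gave 0.49 (0.220). Pdk4, which restrains pyruvate dehydrogenase, was at 20.6, 29.4, 48.3 and 28.3 CPM in control mice and at 45.0, 54.4, 97.7 and 31.3 CPM in Smo-KO mice. Its log2 fold change of 0.84 (edgeR adjusted p = 0.266) was 0.46 without Smo-KO mouse 3. Fgf21, a fasting hormone of liver, was the 1 lower gene, at 115, 31.5, 99.9 and 49.2 CPM in control mice and at 64.4, 13.3, 15.7 and 12.0 CPM in Smo-KO mice. Smo-KO mouse 1 alone lay within the control range (log2 fold change -1.48, edgeR adjusted p = 0.247; -2.43 without that mouse, adjusted p = 0.0266).

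**Figure D5:**
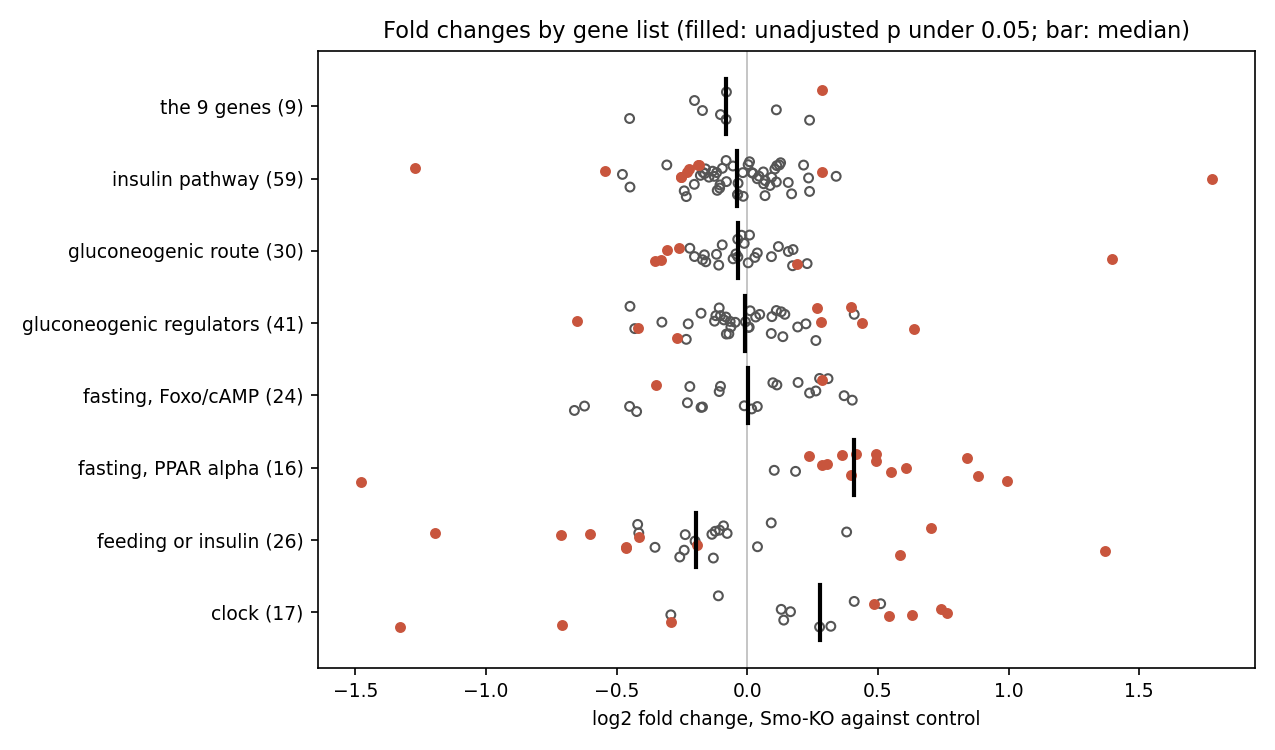
Log2 fold change of Smo-KO against control for each gene tested, by gene list (the number tested in parentheses); filled points had an unadjusted p under 0.05 in edgeR, vertical bars are medians, and some genes are in more than one list. The 24 Foxo and cyclic AMP genes lie on both sides of 0, most PPAR alpha genes lie to the right, and most feeding genes lie to the left.

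Genes that feeding or insulin raises were mostly lower in mean. Of 26 tested, 6 had a higher and 20 a lower mean in Smo-KO livers (median log2 fold change -0.20), with 3 higher and 7 lower at an unadjusted p under 0.05 in edgeR (11.5% and 26.9%, against 6.70% and 7.15% of all genes). After adjustment 0 passed in edgeR and 3 in DESeq2, which called 1.29% of all genes. Those 3 were Acly, lower in Smo-KO livers, and Mlxipl and Aacs, both higher. The median was -0.12 without Smo-KO mouse 3 and -0.12 without control mouse 1. Srebf1, the insulin-responsive lipogenic transcription factor, averaged 166 ± 34.1 against 124 ± 37.97 CPM (SD, n = 4 each; log2 fold change -0.42, edgeR adjusted p = 0.388). That value was -0.24 without Smo-KO mouse 3 (adjusted p = 0.681) and -0.28 without control mouse 1. Its target Fasn, fatty acid synthase, was at 318, 245, 227 and 227 CPM in control mice and at 199, 212, 136 and 190.2 CPM in Smo-KO mice. Every Smo-KO mouse was below every control mouse (log2 fold change -0.46, SE 0.14, edgeR adjusted p = 0.215). Acly, ATP citrate lyase, likewise did not overlap, at 113, 113, 120.3 and 102 CPM against 84.3, 86.4, 68.2 and 85.6 CPM (log2 fold change -0.46, SE 0.10, adjusted p = 0.116 in edgeR and 0.00917 in DESeq2). Pnpla3 (-1.20, edgeR adjusted p = 0.126, at about 1 to 3 CPM), Insig1 (-0.60, 0.231), Elovl5 (-0.41, 0.235) and Gpam (-0.19, 0.349) were lower in mean too. The 3 that were higher at an unadjusted p under 0.05 included Mlxipl, the carbohydrate-sensing factor, with 206, 183, 105 and 141 CPM in control mice and 238, 232, 235 and 245 CPM in Smo-KO mice (log2 fold change 0.58, adjusted p = 0.175 in edgeR and 0.0387 in DESeq2), and Aacs, acetoacetyl-CoA synthetase (0.70; 0.172 and 0.0345). The third was Ppp1r3g, a glycogen-targeting subunit of phosphatase, at 0.951 ± 0.977 against 2.37 ± 1.05 CPM (SD, n = 4 each; log2 fold change 1.37, edgeR adjusted p = 0.291), and 2.31 without control mouse 1 (adjusted p = 0.111). Pklr, liver pyruvate kinase, a target of Mlxipl, averaged 119 ± 26.0 against 111 ± 36.9 CPM (SD, n = 4 each; edgeR adjusted p = 0.868).

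Glycogen and glucose transport genes were balanced, with 2 higher and 1 lower of 21 at an unadjusted p under 0.05 in edgeR (9.52% and 4.76%, against 6.70% and 7.15% of all genes) and a median log2 fold change of 0.0013. Gys2, liver glycogen synthase, had a log2 fold change of 0.40 (adjusted p = 0.308) and Ppp1r3c, which targets phosphatase to glycogen, -0.71 (0.266), both from edgeR. The latter ran from -1.03 without Smo-KO mouse 1 (edgeR adjusted p = 0.0702) to -0.46 without Smo-KO mouse 3 (0.406). Among the 8 insulin-like growth factor binding proteins, 1 was higher at an unadjusted p under 0.05 (6.70% of all genes were), Igfbp2, and the median was -0.26. That median ran from -0.38 without Smo-KO mouse 1 to -0.12 without Smo-KO mouse 2, and was -0.10 over the members with at least 10 counts in every library. Igfbp2 averaged 563 ± 108 against 746 ± 154 CPM (SD, n = 4 each; log2 fold change 0.41, edgeR adjusted p = 0.284), opposite in sign to Igfbp1. Igfbp6 had a log2 fold change of -1.07 at under 5 CPM (edgeR adjusted p = 0.373). It was at 4.53, 4.71, 1.09 and 0.988 CPM in control mice 1 to 4 and at 0.927 to 1.83 CPM in Smo-KO mice. Only control mice 1 and 2 thus lay above the Smo-KO range.

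Circadian genes and markers of other liver cells differed in mean between the groups as well, and their part in these results was not tested. Of 17 clock genes, 5 were higher and 3 lower at an unadjusted p under 0.05 in edgeR (29.4% and 17.6%, against 6.70% and 7.15% of all genes), and DESeq2 called 4 after adjustment (1.29% of all genes). Nr1d2, a clock repressor, was at 99.7, 106, 102 and 103 CPM in control mice and at 132, 161, 145 and 137 CPM in Smo-KO mice, without overlap (log2 fold change 0.49, SE 0.09, adjusted p = 0.0957 in edgeR and 0.000246 in DESeq2). Per2 (0.63) and Per3 (0.76) were higher in mean, and Arntl (-1.33) and Nr1d1 (-0.71) lower, with edgeR adjusted p between 0.156 and 0.333. Nr1d1 ran from -1.04 without Smo-KO mouse 1 to -0.45 without Smo-KO mouse 3. The mean over the 17 clock genes, as log2 difference from the control mean, was 0.23, 0.03, -0.41 and 0.15 in control mice 1 to 4 and 0.29, 0.24, 0.05 and 0.12 in Smo-KO mice 1 to 4, lowest in control mouse 3.

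The tissue carried hepatocyte markers at high levels, summed to 97.3% of control in Smo-KO livers with Alb the most abundant, and 0 of 9 higher and 1 lower at an unadjusted p under 0.05 in edgeR, against 6.70% and 7.15% of all genes. Summed macrophage markers (most abundant Cd5l) were at 105% of control, stellate markers (Col3a1) at 93.4%, endothelial markers (Stab1) at 92.8%, cholangiocyte markers (Spp1) at 119% and neutrophil markers (Csf3r) at 104%. By gene, 8 of 9 endothelial markers were lower in mean (median log2 fold change -0.26). The medians of stellate (0.018) and neutrophil markers (-0.14) were opposite in direction to their sums. Of 12 macrophage markers, 2 were higher and 0 lower at an unadjusted p under 0.05 in edgeR (6.70% and 7.15% of all genes). DESeq2 called 1 of these 12 after adjustment (1.29% of all genes). Lymphocyte markers (Nkg7) summed to 66.1 ± 8.44 CPM in control and 38.6 ± 9.40 CPM in Smo-KO livers (SD, n = 4 each), with 7 of 10 lower at an unadjusted p under 0.05 in edgeR (7.15% of all genes were). After adjustment 0 of the 10 passed in edgeR and 4 in DESeq2. Adipocyte markers summed to 8.79 ± 4.11 against 18.3 ± 5.46 CPM, almost all of it Plin4, the 1 gene of the 6 abundant enough to test. Lep was at 0 in every liver, and Adipoq, Plin1, Cfd and Retn were each at 0 in at least 1 group. Muscle markers summed to 2.63 ± 1.29 against 1.85 ± 0.644 CPM, with 2 of 7 at 0 in every liver.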

How the data were processed

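RNA from whole liver, extracted with Trizol, was sequenced on an Illumina NovaSeq from NEB Next Ultra libraries, 1 library per mouse. The authors deposited unnormalized read counts per gene symbol; the submitters' processing notes name fastp, STAR 2.7.5, featureCounts 2.0.1 and GRCm38. The counting program is not settled, because the lists end with 5 entries in the form that another program, htseq-count, writes; its strand setting and gene models are not given in the sources used here, so reads of overlapping genes on opposite strands may not be told apart. Those entries name no gene and were left out: reads on no gene were 7.56% to 9.68% and ambiguous reads 2.45% to 2.61% of all reads in a list. Libraries of one group differed by a chi-square of 8.17 to 18.5 per degree of freedom, so none was a copy of another of its group.

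Genes passing edgeR's filter on low counts were tested with edgeR 4.0.16 (R 4.3.3; TMM scaling, quasi-likelihood test, no covariate besides group, Benjamini-Hochberg adjustment across the 12977 genes tested, threshold 0.05). Standard errors and 95% intervals come from its F statistic. DESeq2 1.42.0 was an alternative, as were other scalings, other filters, the mouse number as a block and leaving out each mouse; the list counts under these were added after seeing the data. Single values were compared by exact permutation over the 70 assignments of 4 of 8 mice (smallest p 0.0286), and pairs of genes by the 576 rearrangements within groups of log2 CPM (prior count 2). The procedure was tested on simulated data. Counting error is the only error that depth describes, since duplicate reads of 1 molecule cannot be recognized.

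The members and the gene lists were chosen with earlier results of these data known. Genes named were the 9 members, a fixed set of genes around them, the 2 genes of smallest p per list and the 3 most like Irs2, Igfbp1, Pck1 and Ppargc1a. Ptpn1, Shc1, Grb2, Fbp2, Slc25a13, Gpt2, Gpd1, Prkaca, Nr0b2, Angptl4, Fgf21, Aacs, Mlxipl, Insig1, Ppp1r3g, Elovl5, Gpam, Arntl, Per2, Per3 and Nr1d1 were named after their values were seen, as were the single marker genes. Results of 4 single genes are not reported here, although counts over lists include them. Promoters came from RefSeq (GRCm38.p6; 8 of the 9 members matched) and positions and transcript lengths from GENCODE M21. Figures were drawn with matplotlib 3.10.9.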

Additional observations from a re-analysis of the deposited data

Results flagged for a closer look

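In 8 of 184 sets of 4 mice, a single mouse lay far from the other three relative to the range of its group; chance alone gives about 1 in 20 sets, or 9.2. None of the 9 genes of insulin signalling and gluconeogenesis was among them. Smo-KO mouse 3 stood apart in 4 measures. Its library held 8203299 reads on genes, and those of Smo-KO mice 1, 2 and 4 held 9367795 to 9543675. Socs2 was at 71.5 CPM there against 10.97 to 13.7, Vnn1 at 81.4 CPM against 49.8 to 54.5, and Acly at 68.2 CPM against 84.3 to 86.4. Smo-KO mouse 1 had 64.4 CPM of Fgf21 against 12.0 to 15.7, and 197 CPM of Gys2 against 223 to 226. Control mouse 4 had 85.5 CPM of Shc1 against 101 to 103 in the other controls. In control mouse 1 the insulin-like growth factor binding proteins summed to 3376 CPM, against 2614 to 2736.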

How the results depend on the processing

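None of the alternatives run made any of the 9 genes pass an adjusted p of 0.05, and Insr was the 1 member under an unadjusted p of 0.05 in all scalings, filters and tests tried. Leaving out single mice gave 1 to 2 such members: Irs2 joined without control mouse 1 and Igfbp1 without Smo-KO mouse 1. Over all genes, 0 passed adjustment in edgeR, against 167 with DESeq2, 61 without a filter on low counts, 8 with the mouse number as a block and 0 to 78 with single mice left out (5 without control mouse 1, 78 without Smo-KO mouse 1, 4 without Smo-KO mouse 3). The cause was not tested.

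The mouse numbers share no stated source: same-numbered mice correlated at 0.104, 0.187, 0.0611 and 0.113 in their deviations from group means, and control mouse 1 was closest to Smo-KO mouse 4 (0.157). Control mice 2, 3 and 4 were closest to the Smo-KO mouse of their own number. Insr and Irs2 were higher in the Smo-KO mouse of every same-numbered pair. With the mouse number as a block, their edgeR adjusted p were 0.172 and 0.330.

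Of 990 log2 fold changes of 71 named genes under alternatives, 954 kept their sign and side of the threshold, 19 passed it, and 17 took the other sign, all with single mice left out. Their ranges were -0.42 to 0.13 for Pck1, -0.0096 to 0.28 for Pck2, -0.012 to 0.26 for Slc37a4, -0.26 to 0.093 for Pklr, -0.35 to 0.00059 for Klf15, -0.094 to 0.31 for Sds, -0.0049 to 0.49 for Lpin1, -0.092 to 0.0012 for Akt1, -0.15 to 0.079 for Cebpb and -0.0396 to 0.0396 for Nr3c1. Others kept their sign but moved by over 1.5 times with single mice, among them Irs1 (-0.15 to -0.0029), Akt2 (-0.11 to -0.043), Foxo1 (0.064 to 0.195), Ppargc1a (-0.21 to -0.034), Crtc2 (0.17 to 0.36), Hnf4a (-0.17 to -0.078), Pcx (-0.088 to -0.0091) and Igfbp6 (-1.36 to -0.69).

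List counts at an unadjusted p under 0.05 also moved with single mice: 5 to 14 of the PPAR alpha genes were higher, 0 to 5 of the Foxo and cyclic AMP genes lower and 1 to 3 higher, 0 to 4 gluconeogenic enzymes higher, and 2 to 5 insulin pathway genes higher and 2 to 8 lower (1 and 4 with DESeq2). The count over all genes at that p moved as well, being highest without Smo-KO mouse 1 and lowest without Smo-KO mouse 3. Of the 9 members and Smo, Ppargc1a, with 50 to 80 reads, and Smo, with 35 to 88, were the least precisely counted. Other named genes had fewer reads, among them Pnpla3 (7 to 26) and Ppp1r3g (2 to 31).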
